A study of Arabidopsis thaliana with 23 samples.

Results

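In unopened flowers of elf6-3ref6Cjmj13G triple mutant plants, 400 of the 9391 domains of trimethylated lysine 27 of histone H3 (H3K27me3) each spanned 2 or more domains of the wild type, or 4.26% of the list. They were chosen by overlap alone: a triple mutant domain was counted as joining where it overlapped at least 2 wild-type domains by 1 bp or more. A joining domain necessarily covers the whole stretch between the domains it joins, and this stretch is called a filled gap. The 400 joining domains took in 870 wild-type domains, 11.0% of the 7914 in the wild-type list, and filled 470 gaps, 5.94% of the 7909 gaps between neighbouring wild-type domains. That these gaps were unmarked in the wild type and marked in the triple mutant follows from the choice and is not a finding.

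H3K27me3 is laid down by Polycomb repressive complex 2 and marks genes that are kept silent. REF6, ELF6 and JMJ13 are Jumonji-type demethylases that remove the mark, and REF6 finds its targets through zinc fingers that read DNA sequence. The complex can also bind the mark it makes, which allows a marked region to extend along the chromatin beside it.

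The series comprised chromatin immunoprecipitation with sequencing of 23 samples in 10 groups, all from Col0 background plants aged 5 weeks, with 22 °C days and 20 °C nights. H3K27me3 was profiled with an anti-H3K27me3 antibody in wild-type flowers (2 samples) and in elf6-3ref6Cjmj13G flowers (2 samples). GFP-tagged REF6 (REF6-GFP in ref6-3) was precipitated with GFP beads with DSG, which links proteins to one another before fixation (3 samples), and without it (3 samples). REF6-ZnF-GFP was precipitated with DSG in the triple mutant (2 samples, genotype REF6p::REF6-ZnF-GFP elf6-3ref6Cjmj13G) and in ref6 (3 samples, whose genotype entry reads REF6p::REF6-GFP ref6-3 although their titles name REF6-ZnF-GFP). REF6-GFP was therefore mapped in plants carrying a REF6 transgene over a ref6 mutation, and not in the plants in which H3K27me3 was mapped. Each of the 6 groups described here has 1 pooled peak list, so values carry no replicate error and no difference between lists was tested. The 95% intervals (exact, Clopper-Pearson) take each gap as independent and cover only counting error. The depth of the libraries is not used here, and where a broad domain breaks can depend on it.

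The joining domains were wide. Their median width was 6739 bp, with a range of 1122 to 45218 bp, and together they covered 3.26 Mb. The 6911 triple mutant domains that touched 1 wild-type domain had a median width of 1788 bp, and the 2080 that touched none had 877 bp. Width favours joining, so this order is a description only. The authors' fold enrichment had a median of 3.01 in joining domains, 2.37 in domains touching 1 wild-type domain and 1.62 in domains touching none, and 0 of the 400 joining domains had a q above 0.05. Most joined a pair: 348 domains joined 2 wild-type domains, 42 joined 3, 7 joined 4, and single domains joined 5, 7 and 8. They were found on every chromosome, from 3.61% of the triple mutant domains on chromosomes 2 and 4 to 4.82% on chromosome 3.

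Within the joining domains, 63.0% of the length was already marked in the wild type, 25.5% (0.831 Mb) was filled gap and 11.5% lay beyond the outermost wild-type domain. The filled gaps made up 13.7% of the 6.05 Mb covered in the triple mutant alone. REF6-GFP summits, the positions of highest signal in the peaks mapped with DSG, were spread unevenly over these segments. The filled gaps held 205 of the 377 summits in joining domains, at 2.47 per 10 kb. The stretches beyond the joined domains held 105, at 2.81 per 10 kb, and the sequence that carried the mark in the wild type held 67, at 0.326 per 10 kb. A summit lay in 263 of the 400 joining domains (65.8%), in 172 of them inside a filled gap, and 137 held none. Of the narrower domains touching 1 wild-type domain 12.3% held a summit, and of those touching none 44.2%. Per 10 kb, joining domains held 1.16 summits, against 0.561 in domains touching 1 and 3.92 in domains touching none.

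Filled gaps were short. Their median length was 1222 bp, 37.9% were below 1 kb and 15 were 5 kb or longer. A gap was called open where both flanking wild-type domains touched a triple mutant domain but no single domain touched both. The 5770 open gaps had a median length of 7046 bp, so that 7.53% of the filled and open gaps together were filled, and a further 1669 gaps had a flank that touched no triple mutant domain. The shortest gap in each class was close to the same length, at 660 bp for filled and 657 bp for open gaps. The limit of 1 bp on overlap decided few members: the smallest overlap that made a domain joining was 39 bp, 4 domains rested on less than 100 bp, and the nearest misses were 350, 362 and 379 bp short of the next wild-type domain.

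**Figure D1:**
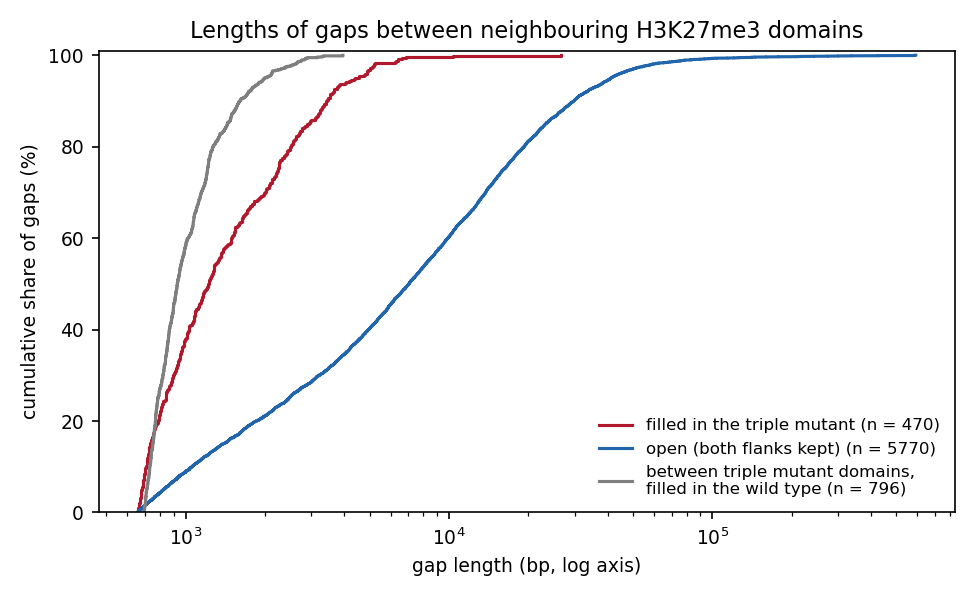
Cumulative share of gaps (vertical axis, percent) by gap length (horizontal axis, bp, log scale) for gaps filled in the triple mutant, open gaps, and gaps between triple mutant domains that a single wild-type domain filled. Medians were 1222, 7046 and 930 bp.

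Among gaps of like length, those that were filled held REF6-GFP more often. Gaps were compared in 4 length classes because a longer gap can hold a summit by its length alone: over all lengths, 186 of 470 filled gaps (39.6%, 35.1 to 44.2%) and 2287 of 5770 open gaps (39.6%, 38.4 to 40.9%) held a summit, with 39.6% of both together. When the open gaps were weighted to the lengths of the filled gaps, 9.82% of open gaps held one, a difference of 29.8 percentage points. Below 4 kb, 14.2% of all filled and open gaps held a summit.

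In gaps of 0.5 to 1 kb, 34 of 178 filled gaps held a summit (19.1%, 13.6 to 25.7%) against 4 of 512 open gaps (0.781%, 0.213 to 1.99%). In gaps of 1 to 2 kb the counts were 61 of 151 filled (40.4%, 32.5 to 48.7%) and 37 of 707 open (5.23%, 3.71 to 7.14%). In gaps of 2 to 4 kb they were 67 of 112 filled (59.8%, 50.1 to 69.0%) and 143 of 773 open (18.5%, 15.8 to 21.4%). The intervals of filled and open gaps did not overlap in any of these classes. From 4 kb upwards, 24 of 29 filled gaps (82.8%) and 2103 of 3778 open gaps (55.7%) held a summit, but these open gaps were longer, with a median of 12719 bp against 5000 bp. Without gaps of 4 kb or more the difference was 29.9 percentage points.

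**Figure D2:**
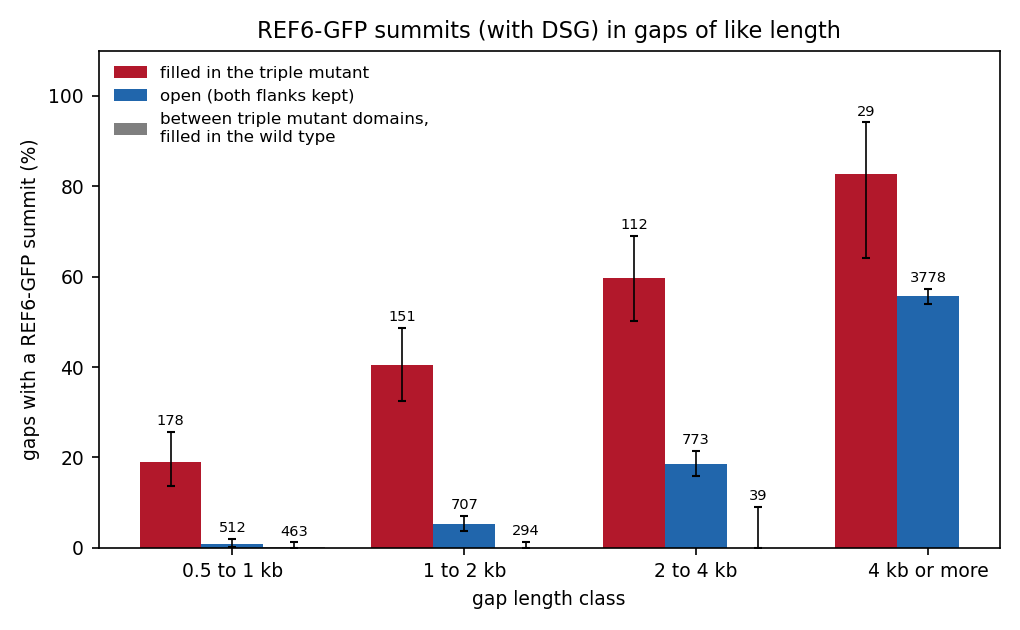
Share of gaps holding a REF6-GFP summit mapped with DSG (vertical axis, percent) by gap length class (horizontal axis), for gaps filled in the triple mutant, open gaps, and gaps between triple mutant domains filled in the wild type. Error bars are exact 95% intervals and the numbers over the bars count gaps; the filled share was above the open share in each of the 4 classes.

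The same order was seen on each chromosome and with each REF6-GFP list. The difference between filled and length-weighted open gaps was smallest on chromosome 2, at 19.8 percentage points, and largest on chromosome 5, at 39.3. Chromosomes 1, 3 and 4 gave 24.3, 36.9 and 23.3 percentage points. With summits mapped without DSG, 37.7% of filled gaps and 8.47% of weighted open gaps held one, with 12.6% over all filled and open gaps below 4 kb. Of the 186 filled gaps with a summit in the DSG list, 169 also had one in the list without DSG. Of the 5770 open gaps, 2287 held a summit with DSG and 2076 held one without, and how many held both was not counted. The wild-type domains beside filled gaps were weaker: the lower −log10 q of the 2 flanks had a median of 4.68 for filled and 9.62 for open gaps. With gaps also matched on whether this value reached 10, the difference was 29.5 percentage points.

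With REF6-ZnF-GFP, filled and open gaps differed less, but the lists are not alike. The REF6-ZnF-GFP list from the triple mutant has 9327 peaks with a median fold of 3.10. The REF6-GFP list with DSG, from ref6-3 plants, has 5393 with a median fold of 4.37. The part of list length, fold or genotype in this was not tested. On chromosomes 1 to 3, used because the triple mutant list has few peaks on chromosomes 4 and 5, 75 of 297 filled gaps (25.3%, 20.4 to 30.6%) held a REF6-ZnF-GFP summit, against 22.4% of length-weighted open gaps. REF6-GFP on the same chromosomes gave 36.0% against 8.45%. A REF6-ZnF-GFP summit with no REF6-GFP summit was less frequent in filled gaps, at 11.8% against 16.1% of weighted open gaps. The short REF6-ZnF-GFP list from ref6 (332 peaks) had a summit in 2 of 470 filled gaps (0.426%) and in 0.938% of weighted open gaps.

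Read in the other direction, a gap with a REF6-GFP summit was filled more often than a gap of like length without one. Of all filled and open gaps below 4 kb, 18.1% were filled. In gaps of 0.5 to 1 kb, 89.5% of the 38 gaps with a summit (75.2 to 97.1%) and 22.1% of the 652 without one (19.0 to 25.5%) were filled. The shares were 62.2% of 98 (51.9 to 71.8%) and 11.8% of 760 (9.63 to 14.4%) at 1 to 2 kb, and 31.9% of 210 (25.7 to 38.7%) and 6.67% of 675 (4.90 to 8.82%) at 2 to 4 kb. Gaps without a summit were far more numerous, and they supplied 284 of the 470 filled gaps.

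The share filled by strength of REF6-GFP was less clear. At 2 to 4 kb, 23.8% of 42 gaps were filled where the strongest summit had a fold in the lowest 25% of the list, and 43.9% of 66 (31.7 to 56.7%) where it was in the highest 25%, at a fold of at least 7.51. At 1 to 2 kb these shares were 56.3% of 16 and 83.3% of 24 (62.6 to 95.3%). In both classes the next to lowest group had the smallest share (20.0% and 50%), and the intervals of the lowest and highest groups overlap. At 0.5 to 1 kb the shares from lowest to highest group were 83.3, 90, 93.3 and 85.7%, of 6, 10, 15 and 7 gaps. With all gaps below 4 kb together they were 37.5, 38.8, 50 and 56.7%. Those groups mix lengths, with median lengths of 2526, 2036, 2400 and 2654 bp. Overlap of intervals does not decide whether shares differ, and a trend with fold was not tested. Summits in filled gaps below 4 kb had a median fold of 5.64, against 4.25 in open gaps and 4.37 over the list. Of the summits in gaps below 4 kb, 65.5% of 168 in filled and 46.5% of 200 in open gaps lay in the middle 50% of the gap. The contrast was widest at 1 to 2 kb (77.0% of 61 against 33.3% of 39) and small at 2 to 4 kb (54.8% of 73 against 50.3% of 157).

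**Figure D3:**
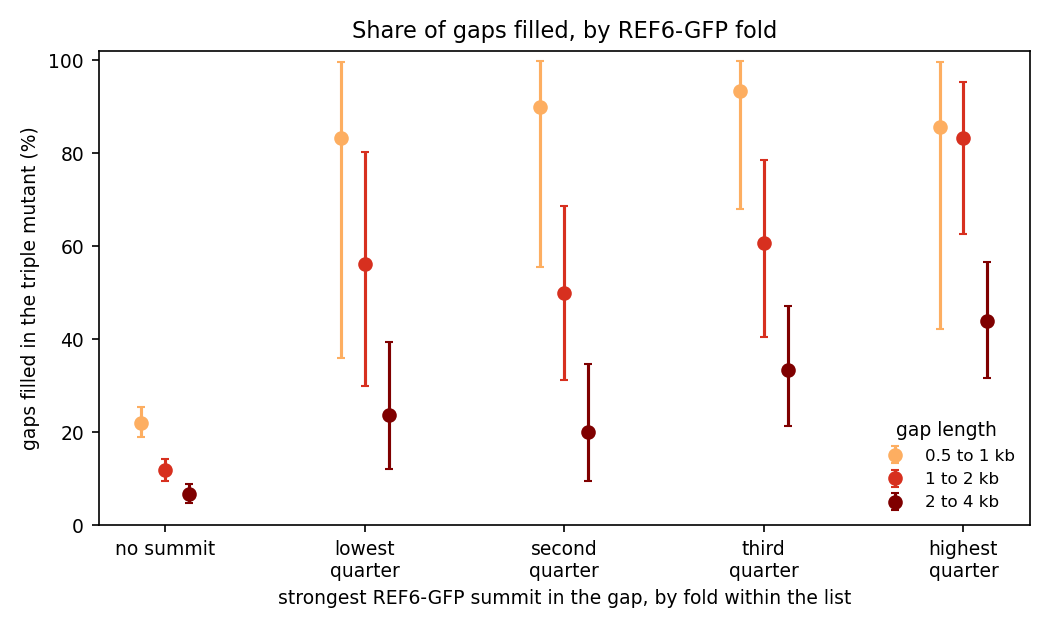
Share of gaps filled in the triple mutant (vertical axis, percent) by the fold of the strongest REF6-GFP summit in the gap, in groups of 25% of the list (horizontal axis), for 3 length classes. Error bars are exact 95% intervals; gaps without a summit were filled at 22.1, 11.8 and 6.67%, below every group with one.

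Open gaps with a summit were often filled in part. At 2 to 4 kb, triple mutant domains covered a median of 37.2% of the 143 open gaps with a summit and 0.856% of the 630 without. At least 50% of the gap was covered in 37.1% of the former and 4.29% of the latter. At 1 to 2 kb the medians were 33.7% of 37 gaps and 0.187% of 670.

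At like length, filled gaps lay in genes more than open gaps did. Coding genes, from start to end of the annotated gene, took up a mean of 58.2% of the length of a filled gap and 29.6% of a length-weighted open gap. Without the weighting the mean for open gaps was 51.6%. No coding gene was touched by 70 of the 470 filled gaps (14.9%, 11.8 to 18.4%), against 37.2% of weighted open gaps and 13.7% of open gaps unweighted. A filled gap often lay entirely inside 1 coding gene: 98 did so (20.9%, 17.3 to 24.8%), against 7.92% of weighted open gaps. In such a gene 2 wild-type domains and the gap between them became a single marked stretch.

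At least 50% of the body of a coding gene lay in 164 filled gaps (34.9%, 30.6 to 39.4%) and in 20.9% of weighted open gaps, with 24.2% over all filled and open gaps below 4 kb. Without the weighting the order was the reverse, with open gaps of a median 7046 bp against 1222 bp: 69.9% of the 5770 open gaps held such a gene, and 64.9% held a whole one. The difference of 14.0 percentage points fell to 3.10 when the whole gene had to lie in the gap (17.4% against 14.3%). By class, 40 of 151 filled gaps of 1 to 2 kb held such a gene (26.5%, 19.6 to 34.3%) against 61 of 707 open gaps (8.63%, 6.66 to 10.9%). At 2 to 4 kb these were 92 of 112 (82.1%, 73.8 to 88.7%) and 387 of 773 (50.1%, 46.5 to 53.6%). Gaps of 0.5 to 1 kb rarely held one, and the intervals overlapped (3 of 178 filled gaps, 1.69%, 0.349 to 4.85%, and 5 of 512 open gaps, 0.977%, 0.318 to 2.26%). From 4 kb upwards all 29 filled and 94.7% of open gaps did. Gene content moved with the summit share. With gaps also matched on the share of their length in coding genes, the difference in summits was 26.9 percentage points, against 29.8 without this.

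**Figure D4:**
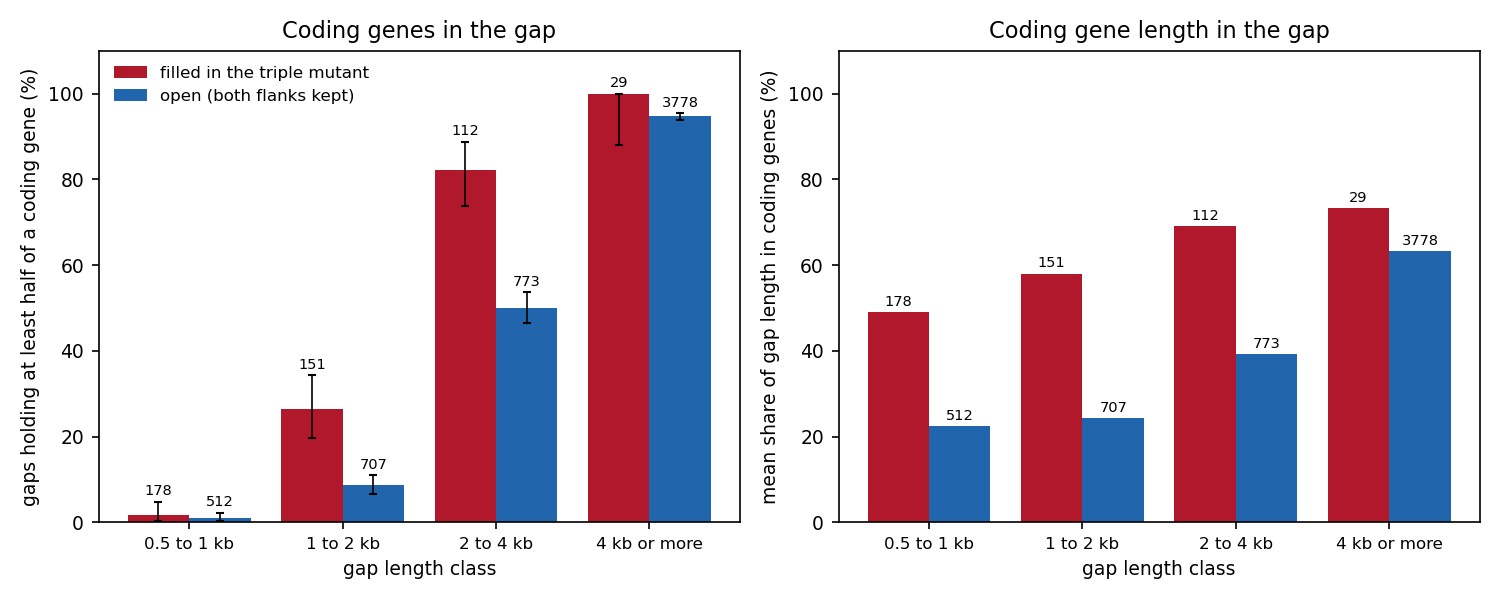
Left, share of gaps holding at least 50% of a coding gene body (percent, with exact 95% intervals); right, mean share of gap length in coding genes (percent), both by gap length class for filled and open gaps, with numbers of gaps over the bars. At 2 to 4 kb, 82.1% of filled and 50.1% of open gaps held such a gene.

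In all, 208 coding genes had at least 50% of their body in a filled gap, 0.758% of 27444. Of these 107 lay in it whole. In the triple mutant 185 were covered over 100% of their length, and 107 had no coverage in the wild type. A gene was said to gain the mark where less than 10% of it was covered in the wild type and 50% or more in the triple mutant. By this rule 120 of the 208 gained it, against 6.29% of all coding genes. The choice of gaps fixes most of this count, and nothing is read from it. These 120 were 6.95% of the 1727 gained genes. A REF6-GFP summit, which the choice did not use, lay in the body of 96 of the 208 genes (46.2%), against 16.2% of all coding genes. That 16.2% is not matched on gaps or on the mark: 23.7% of all coding genes were marked over at least 50% in the wild type.

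The longest filled gap spanned a cluster of cysteine-rich receptor-like kinase (CRK) genes, which encode membrane receptors with kinase domains. It was 26711 bp long (chromosome 4, 12153445 to 12180155, TAIR10) and lay in a joining domain of 43536 bp, the second widest. The wild-type domains beside it were 896 and 519 bp wide. It held CRK14, CRK15, CRK16, EMB1290 (also CRK17), CRK18, CRK19, CRK20, most of CRK21 and the unnamed gene AT4G23271. The first 7 of these and AT4G23271 went from 0 to 100% coverage, and CRK21 from 16.2% to 100%. The gap held 5 REF6-GFP summits, with folds of 2.96, 12.5, 9.13, 17.0 and 18.7 from left to right, the last 3 in EMB1290, CRK19 and CRK20. A second gap of 4883 bp in the same domain held CRK22, which also went from 0 to 100% and had a summit with a fold of 4.51. In all, 10 of the 14 coding genes touched by this domain gained the mark, and CRK23 was the 1 marked over at least 50% in the wild type, at 74.4%.

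The filled gap with the strongest REF6-GFP summit held cell wall genes. It measured 6638 bp (chromosome 5, 23299361 to 23305998) and contained XTH12, XTH13 and AT5G57535 whole and 73.4% of XTH25. XTH genes encode xyloglucan endotransglucosylases/hydrolases, which cut and rejoin wall polymers. XTH12 and XTH13 went from 0 to 100% coverage and XTH25 from 26.6% to 100%. The summit had a fold of 24.7 and lay between genes, 804 bp from the left edge of the gap. Its peak was wider, from 0.211 to 4.83 kb from that edge, and ran over XTH12 and XTH13. The joining domain went on past the right flank over TCH4, another gene of this family that is induced by touch, which went from 0 to 83.0% and had a summit of its own. On the left it covered ZFP2, a zinc finger gene marked over 100% in both genotypes.

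**Figure D5:**
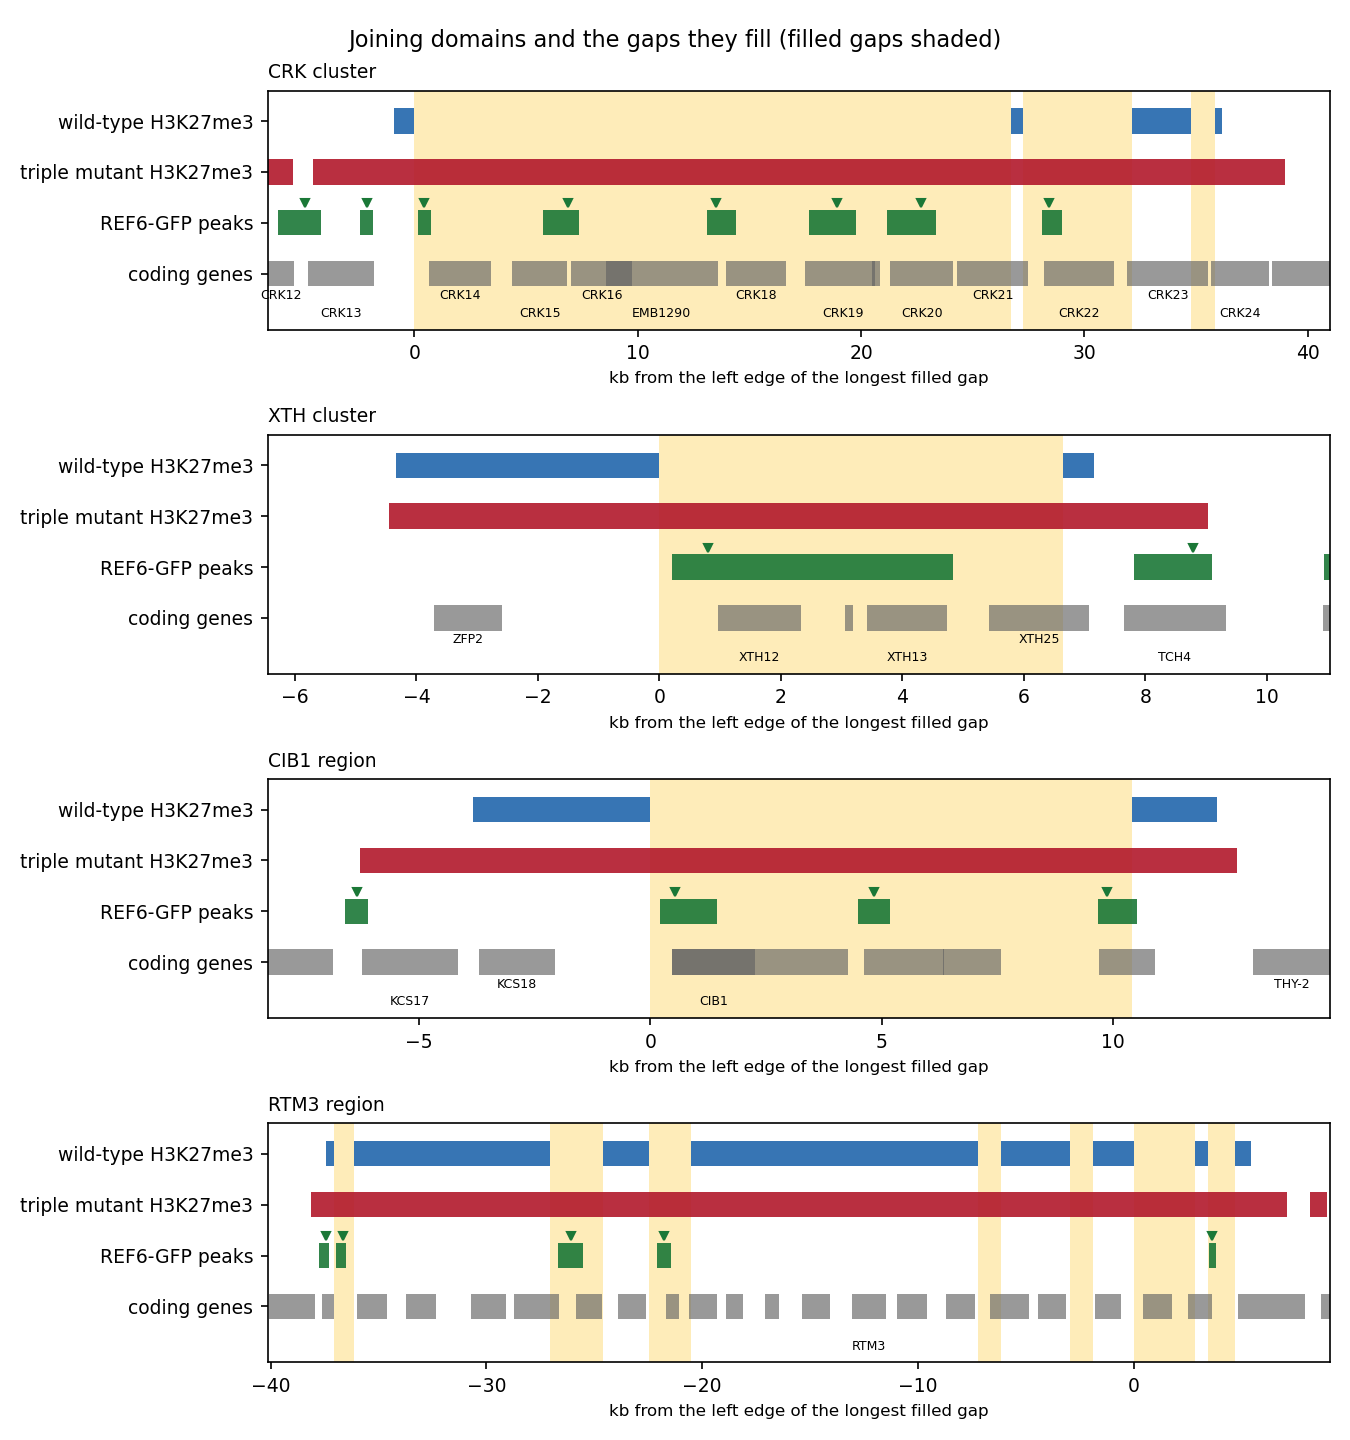
Maps of 4 joining domains: wild-type and triple mutant H3K27me3 domains, REF6-GFP peaks mapped with DSG (triangles mark summits) and coding genes, with filled gaps shaded; the horizontal axis is distance in kb from the left edge of the longest filled gap. The CRK gap of 26711 bp holds 5 summits, the XTH gap 1 and the CIB1 gap 3, and the domain over RTM3 joins 8 wild-type domains across 7 gaps.

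Of the 10 filled gaps with the strongest summits, whose folds ranged from 20.6 to 24.7, 5 lay on chromosome 5 and 3 on chromosome 3. All 10 also had a summit without DSG, as had 169 of all 186 filled gaps with a summit. They were at least 2184 bp long. KAT1, which encodes an inward-rectifying potassium channel of guard cells, lay whole in a gap of 6213 bp (chromosome 5, 18743012 to 18749224). It went from 0 to 100% coverage, and its summit, with a fold of 22.2, lay near the middle of the gap, 3262 bp from one edge and 2950 bp from the other. Cpn60beta3, a gene for a chaperonin subunit of plastids, went from 0 to 100% in a gap of 5104 bp whose summit, with a fold of 21.5, lay in the neighbouring gene GulLO4. GSTU9, which encodes a glutathione transferase of the tau class, went from 0 to 100% in a gap of 2258 bp and held a summit with a fold of 20.8. Of the other 6 gaps, 5 held a gene without a symbol (AT5G53710, AT3G09330, AT3G04210, AT3G21330 and AT4G25433) and 1 held at least 50% of no coding gene.

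Of the 10 longest filled gaps, 9 held a REF6-GFP summit, near the 82.8% of all 29 filled gaps of 4 kb or more. Of open gaps of 4 kb or more, 55.7% held one. A gap of 10400 bp on chromosome 4 (16497910 to 16508309) held CIB1, which encodes a basic helix-loop-helix protein that binds the photoreceptor cryptochrome 2, and 4 genes without a symbol. CIB1 went from 0 to 100% coverage. The 3 summits of the gap had folds of 11.3, 4.22 and 2.72, the first where CIB1 and AT4G34540 overlap. To the left of the gap in the same domain, KCS18, a fatty acid elongation gene of seeds, was marked over 100% in both genotypes, and its neighbour KCS17 went from 0 to 100%. SUE4 (from 0 to 100%), RBP47C' (an RNA-binding protein gene, from 0 to 100%), and the aldo-keto reductase genes ChlAKR (from 0 to 100%) and AKR4C8 (from 19.7% to 100%) lay in gaps of 5221 to 6388 bp. Each of these 3 gaps held 1 summit, with folds from 3.98 to 18.7. The third longest gap, of 6839 bp on chromosome 1 (24595189 to 24602027), held none in either REF6-GFP list, and AT1G66070 and AT1G66080 in it went from 0 to 100%.

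The domains that joined the most wild-type domains lay over runs of neighbouring genes, and the share marked already varied. Overlap with many wild-type domains favours genes marked there, so these shares are a description only. Among the 10 domains joining the most, the CRK domain had 1 of 14 genes marked over at least 50% in the wild type. A domain on chromosome 2 (12756598 to 12768535) had 1 of 4. The widest domain of the triple mutant list, 45218 bp on chromosome 3 (21566330 to 21611547), joined 8. It touched 22 coding genes, of which 17 were marked over at least 50% in the wild type (23.7% of all coding genes were) and 3 gained the mark. Among those marked in both was RTM3, known for restricting the movement of a plant virus. Its 7 filled gaps were 906 to 2821 bp long, and 4 held a summit, the strongest with a fold of 7.15. The domain that joined 7, on chromosome 1 (22491102 to 22507950), held no REF6-GFP summit at all. It ran over LCR66, a defensin-like peptide gene marked over 100% in both genotypes, and 0 of its 7 coding genes gained the mark.

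The domain that joined 5 (chromosome 1, 8193760 to 8212084) touched 9 genes, among them the RALF-like signalling peptide genes RALFL2 and RALFL3, which were covered over 88.6% and 100% in the wild type. AT1G23100, AT1G23110 and AT1G23150 gained the mark, and 3 of its 4 gaps held a summit. Over CEP2 and CEP3, cysteine protease genes, a domain of 16954 bp joined 4. CEP2 was covered over 98.7% in the wild type, CEP3 went from 0 to 100%, and BT2 went from 19.5% to 100%. Among the other domains joining 4, HDA18, a histone deacetylase gene, went from 0 to 96.3%, and NSH3, a nucleoside hydrolase gene, from 7.46% to 96.5%. ABCG31 went from 43.1% to 100% and ELF4-L1 from 31.1% to 100%. Across the 10 domains that joined the most, 18 of 38 filled gaps held a summit, against 186 of all 470 filled gaps (39.6%).

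Of the 20 gene lists, 9 had a member with at least 50% of its body in a filled gap, 25 genes in all, and 16 of these 25 gained the mark, near the 57.7% of all 208 genes in filled gaps. The CRK list had 9 of 43 members there (20.9%, against 0.758% of all coding genes), all in the 2 neighbouring gaps described above, so they stand for 1 locus. Of 49 glutathione transferase genes there were 3, in 3 gaps: GSTU7 and GSTU9 went from 0 to 100% and GSTU28 from 29.1% to 100%. Of 69 XTH and expansin genes there were 3, in the 1 gap described above. Of 234 cytochrome P450 genes there were 3. CYP71B17 went from 0 to 100% and CYP71B16 from 34.0% to 100% in a gap of 4347 bp with no summit, and CYP71B6 went from 40.8% to 100%.

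The MYB transcription factor genes MYB61 and MYB305, of 125 in that list, both went from 0 to 100%, in gaps whose summits had folds of 17.0 and 15.5. GA20OX2, which encodes a gibberellin 20-oxidase of hormone synthesis, went from 43.2% to 100% in a gap whose summit had a fold of 13.0. The transporter genes ABCG12 (from 14.2% to 98.0%) and ABCG16 (from 15.2% to 93.4%), of 127 ABC transporter genes, had summits with folds of 4.08 and 3.15 in their gaps. AT5G53590 of the SAUR list went from 0 to 100%, and AT5G54010 of the UGT list from 49.2% to 100%. The MYB and ABC transporter shares in filled gaps, 1.6% and 1.57%, rest on 2 genes each, against 0.758% of all coding genes. No member lay in a filled gap in 11 lists, among them the FLC clade, WRKY, NAC, STP, YUC, PIN, Aux/IAA, photosynthesis, CLE and RALFL, and floral organ and meristem identity genes. These lists held from 6 (FLC clade) to 100 (NAC) genes. With 0.758% of all coding genes in filled gaps, nothing is read from their absence. In the floral identity list 17 of 20 genes were marked over at least 50% in the wild type already, against 23.7% of all coding genes.

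The same rule with the lists exchanged found joining in the opposite direction too, and more of it, but with few REF6-GFP summits in the gaps. In the wild type 665 of 7914 domains (8.4%) each joined 2 or more triple mutant domains and filled 796 of the 9386 gaps between these (8.48%). Those gaps were shorter, with a median of 930 bp and a longest of 3958 bp. A REF6-GFP summit lay in 1 of the 796 (0.126%, 0.00318 to 0.698%), against 186 of the 470 gaps filled in the triple mutant. These 796 gaps lie inside wild-type domains. The wild-type sequence of the joining domains, which was marked in both genotypes, held 0.326 summits per 10 kb. The 796 gaps were marked in the wild type alone. The reason for the low share was not tested. No coding gene was touched by 457 of the 796 (57.4%, 53.9 to 60.9%), and 21 held at least 50% of one (2.64%). With as many domains in each list, taken by q, 398 triple mutant and 499 wild-type domains joined others.

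Filled gaps with and without a REF6-GFP summit differed in length and gene content. The 284 without a summit had a median length of 986 bp, and 61 of them held at least 50% of a coding gene. The 186 with a summit had a median length of 1946 bp, and 103 of them held such a gene. The 2 sets were not matched on length, and longer gaps more often hold such a gene. Coding genes took up 54.5% of the length of gaps without a summit and 63.8% with one. Of the 284, 135 lay in a joining domain that held a summit elsewhere and 149 in one that held none, and 21 had a summit within 200 bp outside the gap. The lower −log10 q of the 2 flanks had a median of 3.67 without and 6.20 with a summit. When only domains with a −log10 q of at least 10 were kept in both lists, 145 joining domains and 157 filled gaps were left, and 54.1% of these gaps held a summit. The part of depth was not tested.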

How the data were processed

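Per the submitters' processing notes, the TAIR10 build and the tools MACS2 2.1.0, Bowtie 1.1.2, deepTools and Picard 2.60 were used, in an order and with settings not given. The deposited lists carry no column names and were read as MACS2 output. Peak names contain "pooled", and each list was treated as a single call on the samples of its group, which the labels do not say came from separate plants. The fold deposited by the authors is a linear ratio over a control that the labels leave unnamed. The −log10 q and the summit offset are the authors' values, and the deposited score and p were not used.

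Gaps, overlaps and intervals were computed with Python 3.11.15, numpy 2.4.6, pandas 2.3.3 and scipy 1.17.1, and tested on simulated data. Open gap shares were weighted to the number of filled gaps in classes of 0.5 to 1, 1 to 2, 2 to 4, and 4 kb or more. Genes came from a RefSeq table of TAIR10.1, used for names and overlap with 27444 protein-coding genes; coordinates printed are those of the lists. Gene lists were matched by symbol or synonym, giving 1255 genes in 20 lists.

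Genes named are those with a symbol and at least 50% of the body in the 10 filled gaps with the strongest summit or the 10 longest, genes under the 10 domains joining the most (4 per domain by position), and list members in a filled gap. Their neighbours, and genes without a symbol, were named after values were seen. Members and lists were chosen with earlier results of these data known. The other 8 samples (input DNA and histone H3) were not analysed here. One gene list and 1 gene that the rule would name are not reported here.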

Additional observations from a re-analysis of the deposited data

How the results depend on the processing

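Of 192 values recomputed under 22 alternative settings, 164 stayed within a range set around the reported value. For counts this was within 1.5 times, and for shares and the median length an exact interval. Open shares were judged by the width of an interval at the number of filled gaps. The mean share of length in coding genes was treated as a counted share, which it is not, so its range is a convention only. For differences the range was that of the filled share alone. The 192 include values that could not change, such as filled shares when only the open gaps were redefined. Only differences between filled and open gaps could change direction, and 0 did. Of the 28 values outside this range, 13 came from keeping only domains whose −log10 q reached 10 and 15 from other settings. The first left 145 joining domains and 157 filled gaps with a median length of 1756 bp, 75 gained genes in them, and differences between filled and open gaps of 39.5 percentage points in summits and 20.5 in genes. It also left 284 wild-type domains joining triple mutant domains across 315 gaps, with a summit in 0% of these gaps, as with equal list lengths (0%). The summit difference was 34.5 percentage points against open gaps covered by less than 10%, and 21.1 with summits of at least the median fold. The gene difference was 22.3 with any overlap and 3.10 with whole genes. Over all alternatives the summit difference ranged from 21.1 to 39.5 percentage points, and that in coding length from 26.9 to 31.6. Leaving out gaps of 4 kb or more, and matching also on flank q or coding length, were added after the data were seen. No paired analysis was possible because each list was made from pooled samples, and for the same reason no replicate could be left out. Unequal depth between the pooled libraries limits any count of joined domains, and its size is not known here.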
